A study of Mus musculus with 4 samples.

Results

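The genes examined here encode the machinery with which hepatocytes assemble very low density lipoprotein (VLDL) and move it out of the endoplasmic reticulum: Apob, Mttp, P4hb, Tm6sf2, Pla2g12b, Surf4, Sar1a and Sar1b, together with Creb3l3, a transcription factor of hepatic lipid metabolism. They were picked by name, and every array probe whose gene name or accession belongs to one of them was taken. That gave 9 of the 31709 genes on the array, with 11 probes, because Apob and Sar1a have 2 probes each. The liver RNA came as 4 samples of male IlrunKO mice, in which Ilrun (a gene linked to inflammation and plasma lipids) is deleted globally and not in hepatocytes alone, and 4 samples of male wild-type (WT) mice. The samples were hybridised to 4 two-colour Agilent arrays. All mice of both genotypes were C57BL/6, ate chow and had been fasted for 4 h; no source used here gives their age. Each array held 1 IlrunKO and 1 WT sample in different dyes, IlrunKO in red Cy5 on arrays 1 and 2 and in green Cy3 on arrays 3 and 4. Pooling of animals is not stated, so p-values refer to samples and may not refer to single mice. The model used below has a dye term, so its p-values measure the spread between arrays of the same dye orientation. Differences between the 2 orientations, and between their mice, do not enter that spread.

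VLDL carries triglyceride from the liver to other tissues. Each particle is built on a single molecule of apolipoprotein B, which takes up lipid from the microsomal triglyceride transfer protein while it enters the endoplasmic reticulum, and is enlarged there before it leaves. The particle exits in carriers formed by the COPII coat, for which SAR1 GTPases start coat assembly and SURF4 acts as a cargo receptor. In humans, mutations in APOB and MTTP cause very low plasma apolipoprotein B, and mutations in SAR1B cause chylomicron retention disease.

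Values below are of 2 kinds. A log2 ratio is IlrunKO over WT on one array, so a negative value means less RNA signal in IlrunKO. A log2 level is the signal of one channel after normalisation, comparable between samples for the same probe but not between probes. The estimate for a gene comes from limma, fitted over 19651 genes on the probe with the brightest signal, with a dye term. The words rose and fell are kept for an adjusted p under 0.05. In bulk liver, fewer cells of a type and less RNA per cell cannot be told apart.

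Between 60.0% and 67.1% of probes were well above background in a channel, and all arrays shared 1 slide and 1 scan. The number of arrays limits the precision: over all genes, the 95% confidence interval of an estimate extended by a median of 0.147 on each side. The brightest probe of Ilrun, the deleted gene, had a ratio of -4.21, or 18.5-fold lower in IlrunKO (limma adjusted p = 0.00336), and its other probe had a ratio of -2.15 (adjusted p = 0.0264 over all probes). All 10 hepatocyte markers passed the filter on dim probes. Their estimates had a median of -0.27, as low as that of Apob, with 8 of the 10 below 0 and 6 at an unadjusted p under 0.05. Of those 6, Asgr1 was above 0, at 0.16. Over all genes, 50.6% were below 0 and 20.5% had such a p. By array the median ratio of the hepatocyte markers was 0.05, 0.19, -0.41 and -0.49 on arrays 1 to 4. Their summed log2 level ran between 19.35 and 20.06 in IlrunKO and between 19.70 and 20.17 in WT. Here and below, a summed level is the log2 of the added unlogged signals of a list's tested genes in 1 channel. A few bright probes can dominate such a sum. None of those 10 markers passed the test, and their part in the members' ratios was not tested. Of the enterocyte markers, which bear on Apob and Mttp because intestine also makes lipoproteins, Vil1, Fabp6 and Lct were not well above background in any channel, while Fabp2 was in all 8. Alpi was well above background in 1 WT channel only.

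The mRNAs of the VLDL machinery differed little between genotypes, and no difference passed the test. All 11 probes were well above background in all 8 channels, so every member was measured in every liver sample. Of the 9 genes, 0 passed the limma test at an adjusted p under 0.05, where 270 of all 19651 genes passed (1.37%, of which 0.656% fell and 0.718% rose). At an unadjusted p under 0.05 stood 3 of the 9, Apob, Mttp and Tm6sf2, all with lower estimates in IlrunKO. Over all genes that share was 20.5% in either direction and 9.87% lower. With limma's separate-channel model, which called 2486 of 19565 genes, 0 of the 9 passed as well. The estimate was below 0 for 8 of the 9 genes, where 50.6% of all genes were below 0, and the members' median ratio was -0.10 against -0.0015 over all genes. The members' estimates ran between -0.27 for Apob and 0.0032 for P4hb. The 5th and 95th percentiles of all genes were -0.25 and 0.29, so Apob stood just below that span and the other members inside it. The 95% confidence intervals of the 9 estimates together reached down to -0.49 (1.40-fold lower) and up to 0.18 (1.13-fold higher).

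**Figure D1:**
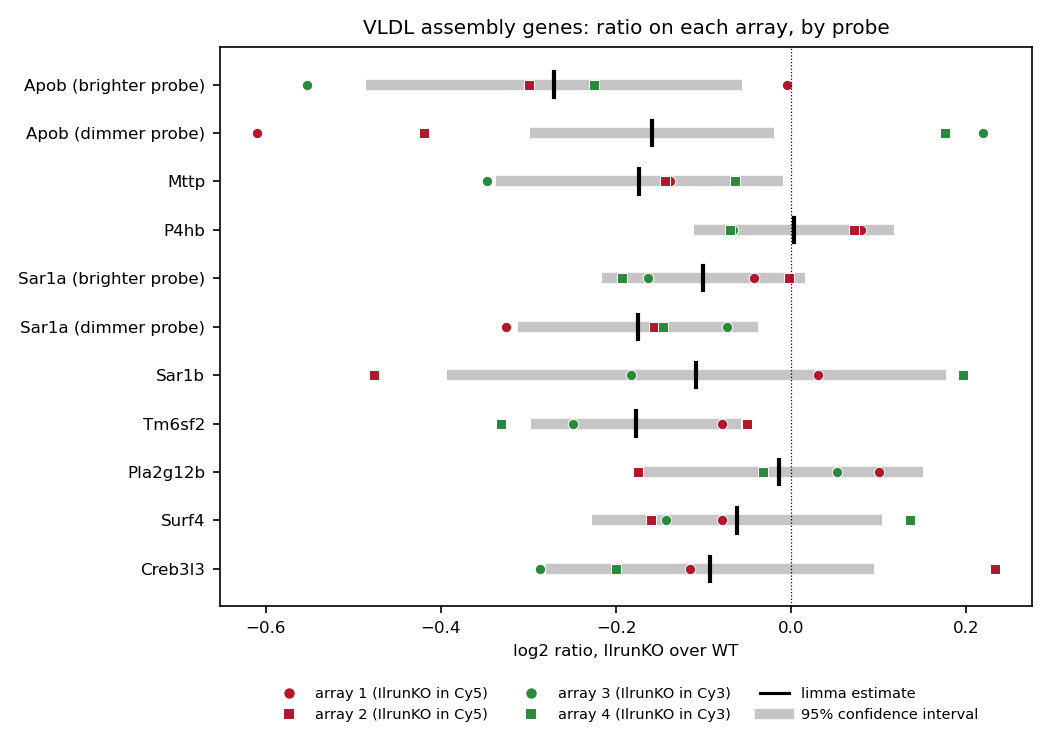
Log2 ratio of IlrunKO over WT (horizontal axis) for each of the 11 probes of the 9 genes, with one symbol for each of the 4 arrays (red where IlrunKO was in Cy5, green where it was in Cy3), a black tick at limma's estimate for the probe and a grey bar for its 95% confidence interval. Estimates lie between -0.27 and 0.0032, and the dimmer Apob probe splits by dye orientation, at -0.61 and -0.42 on arrays 1 and 2 and at 0.22 and 0.18 on arrays 3 and 4.

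Because Apob and Sar1a are each read by 2 probes, of which those of Apob disagreed, and Mttp stands beside Apob as the lipid donor, the probe sequences behind these values are shown. Positions are those in the files (mm9) and all 4 sequences are printed as the array carries them, 5′ to 3′. The dimmer Sar1a probe is listed with a span of 3355 bases for its 60 letters, so it joins pieces that are not adjacent in the genome.
Apob brighter probe (chr12:8023194-8023253, plus strand): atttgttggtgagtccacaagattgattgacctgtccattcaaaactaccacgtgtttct
Apob dimmer probe (chr12:8012697-8012756, plus strand): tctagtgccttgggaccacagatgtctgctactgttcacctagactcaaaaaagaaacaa
Mttp probe (chr3:137753868-137753927, minus strand): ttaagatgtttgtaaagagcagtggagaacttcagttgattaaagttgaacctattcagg
Sar1a dimmer probe (chr10:61149215-61152569, plus strand): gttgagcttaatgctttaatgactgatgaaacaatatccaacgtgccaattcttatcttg

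Apob encodes apolipoprotein B, the structural protein of VLDL that stays with the particle for its whole life. On its brighter probe the log2 level was 14.98, 15.05, 14.97 and 15.17 in the IlrunKO samples of arrays 1 to 4, against 14.98, 15.35, 15.53 and 15.40 in the WT samples. The IlrunKO level averaged 15.04 ± 0.09 and the WT level 15.31 ± 0.23 (SD, n = 4 each). IlrunKO was below WT within all 4 arrays, almost level on array 1, but the groups overlapped because the WT sample of array 1 was as low as the IlrunKO samples. The ratios were -0.0051, -0.30, -0.55 and -0.23, and limma put the gene at -0.27 (1.21-fold lower), with a 95% interval of -0.49 to -0.05. The adjusted p was 0.178 in limma, so the gene did not pass.

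The dimmer Apob probe gave another picture. It read -0.61 and -0.42 where IlrunKO carried Cy5, and 0.22 and 0.18 where IlrunKO carried Cy3. The sign of the ratio thus turned with the dye orientation, and the SD over the 4 arrays was 0.42, the highest of the 11 probes. The IlrunKO level was 14.60, 14.97, 15.02 and 14.85 and the WT level 15.21, 15.39, 14.80 and 14.68 on arrays 1 to 4. A dye term absorbs such a split: with it limma put the probe at -0.16 (interval -0.30 to -0.02, adjusted p = 0.200 over all probes), and without it the adjusted p was 0.725. Subtracting the brighter probe's ratio from the dimmer probe's gave -0.61, -0.12, 0.77 and 0.40 on arrays 1 to 4. The probes differed in sign from each other on arrays 3 and 4. On the brighter probe the orientation means were -0.15 with IlrunKO in Cy5 and -0.39 with IlrunKO in Cy3, both below 0. In each orientation the mice differ too, so dye and mouse cannot be told apart.

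Mttp encodes the large subunit of the microsomal triglyceride transfer protein, which loads lipid onto apolipoprotein B. Its log2 level was 11.54, 11.39, 11.38 and 11.84 in IlrunKO, against 11.68, 11.53, 11.72 and 11.90 in WT. IlrunKO was the lower sample on every array, although the IlrunKO sample of array 4 stood above 3 of the 4 WT samples. The ratios were -0.14, -0.14, -0.35 and -0.06, with an estimate of -0.17 (1.13-fold lower, interval -0.34 to -0.0082, limma adjusted p = 0.229). At the lower end of that interval Mttp would be 1.26-fold lower in IlrunKO.

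P4hb encodes protein disulfide isomerase, the small subunit that keeps the transfer protein soluble in the endoplasmic reticulum and also a folding enzyme and a subunit of prolyl 4-hydroxylase. Its level averaged 13.67 ± 0.02 in IlrunKO and 13.66 ± 0.09 in WT (SD, n = 4 each). The ratios were 0.08, 0.07, -0.07 and -0.07, so their sign followed the dye orientation, and the estimate was 0.0032 (interval -0.11 to 0.12, limma adjusted p = 0.980). A fall of more than 1.08-fold lay outside the interval for P4hb. Its interval was the narrowest of the 9 genes, but the split between dye orientations does not widen it. With median centring the P4hb estimate was -0.147, below that interval.

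Tm6sf2 encodes a membrane protein of the secretory pathway that promotes lipid loading of VLDL, and in humans a variant of the gene is linked to fatty liver and low plasma lipids. The IlrunKO samples had log2 levels of 10.206, 9.993, 10.1015 and 10.082, against 10.29, 10.04, 10.35 and 10.41 in WT. IlrunKO was lower on all 4 arrays, but the WT sample of array 2 was among the low values, so the groups overlapped. The ratios were -0.08, -0.05, -0.25 and -0.33, with an estimate of -0.18 (1.13-fold lower, interval -0.30 to -0.06). Its limma adjusted p of 0.140 was the smallest of the 9 genes and did not pass. The mean ratio was -0.06 with IlrunKO in Cy5 and -0.29 with IlrunKO in Cy3, the same 2 arrays on which the hepatocyte marker medians were -0.41 and -0.49. The part of those markers in the Tm6sf2 value was not tested.

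Pla2g12b encodes a catalytically inactive member of the secreted phospholipase A2 family that in mice is needed for normal VLDL secretion. Its level was 10.89, 11.02, 11.00 and 11.15 in IlrunKO and 10.79, 11.20, 10.95 and 11.19 in WT. IlrunKO was higher on arrays 1 and 3 and lower on arrays 2 and 4, with ratios of 0.10, -0.17, 0.05 and -0.03. The estimate was -0.01 (interval -0.18 to 0.15, limma adjusted p = 0.933).

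Surf4 encodes the cargo receptor that helps apolipoprotein B particles enter COPII carriers. Its level was 12.33, 12.47, 12.43 and 12.54 in IlrunKO and 12.41, 12.63, 12.57 and 12.40 in WT. IlrunKO was lower on 3 arrays and higher on array 4, with ratios of -0.08, -0.16, -0.14 and 0.14. The estimate was -0.06 (interval -0.23 to 0.11, limma adjusted p = 0.652), so a change of up to 1.17-fold lower was within the interval.

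Sar1a and Sar1b encode the paralogous GTPases that start assembly of the COPII coat. The brighter Sar1a probe read 12.49, 12.55, 12.39 and 12.24 in IlrunKO and 12.54, 12.56, 12.56 and 12.43 in WT. Its ratios were -0.04, -0.0027, -0.16 and -0.19, all below 0, with an estimate of -0.10 (interval -0.22 to 0.02, limma adjusted p = 0.300). The dimmer Sar1a probe read 9.25, 9.37, 9.25 and 9.14 in IlrunKO and 9.58, 9.52, 9.32 and 9.29 in WT. It too was below 0 on all 4 arrays, at -0.33, -0.16, -0.07 and -0.15, with a probe estimate of -0.18 (interval -0.31 to -0.04, adjusted p = 0.169 over all probes in limma). Both Sar1a probes thus had the same sign on every array, although the arrays on which each was lowest were not the same.

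Sar1b read 12.26, 12.05, 12.32 and 12.62 in IlrunKO and 12.23, 12.53, 12.51 and 12.42 in WT. Its ratios were 0.03, -0.48, -0.18 and 0.20, the largest spread of the 9 brightest probes (SD 0.29), and IlrunKO was higher on arrays 1 and 4 and lower on arrays 2 and 3. The estimate was -0.11 with an interval of -0.40 to 0.18 (limma adjusted p = 0.646). The ratio of Sar1a minus that of Sar1b was -0.07, 0.47, 0.02 and -0.39 on arrays 1 to 4, with a mean of 0.0079 ± 0.36 (SD, n = 4). An exact sign-flip permutation test, two-sided, gave p = 0.875, but the smallest p that 4 arrays allow is 0.125, so this test could not have passed. The mean lies near 0 because the values of arrays 2 and 4 have opposite signs, and it was -0.147 without array 2 and 0.140 without array 4.

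Creb3l3 encodes CREBH, a transcription factor of liver and intestine that is held in the endoplasmic reticulum membrane, is released by cleavage in the Golgi, and then acts on genes of lipoprotein and fasting metabolism. Its level was 14.89, 15.11, 14.88 and 15.09 in IlrunKO, against 15.01, 14.87, 15.17 and 15.29 in WT. IlrunKO was lower on 3 arrays and higher on array 2, with ratios of -0.12, 0.23, -0.29 and -0.20. The estimate was -0.09 (interval -0.28 to 0.10, limma adjusted p = 0.543). Array measurements of its mRNA do not report the cleavage of the protein.

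**Figure D2:**
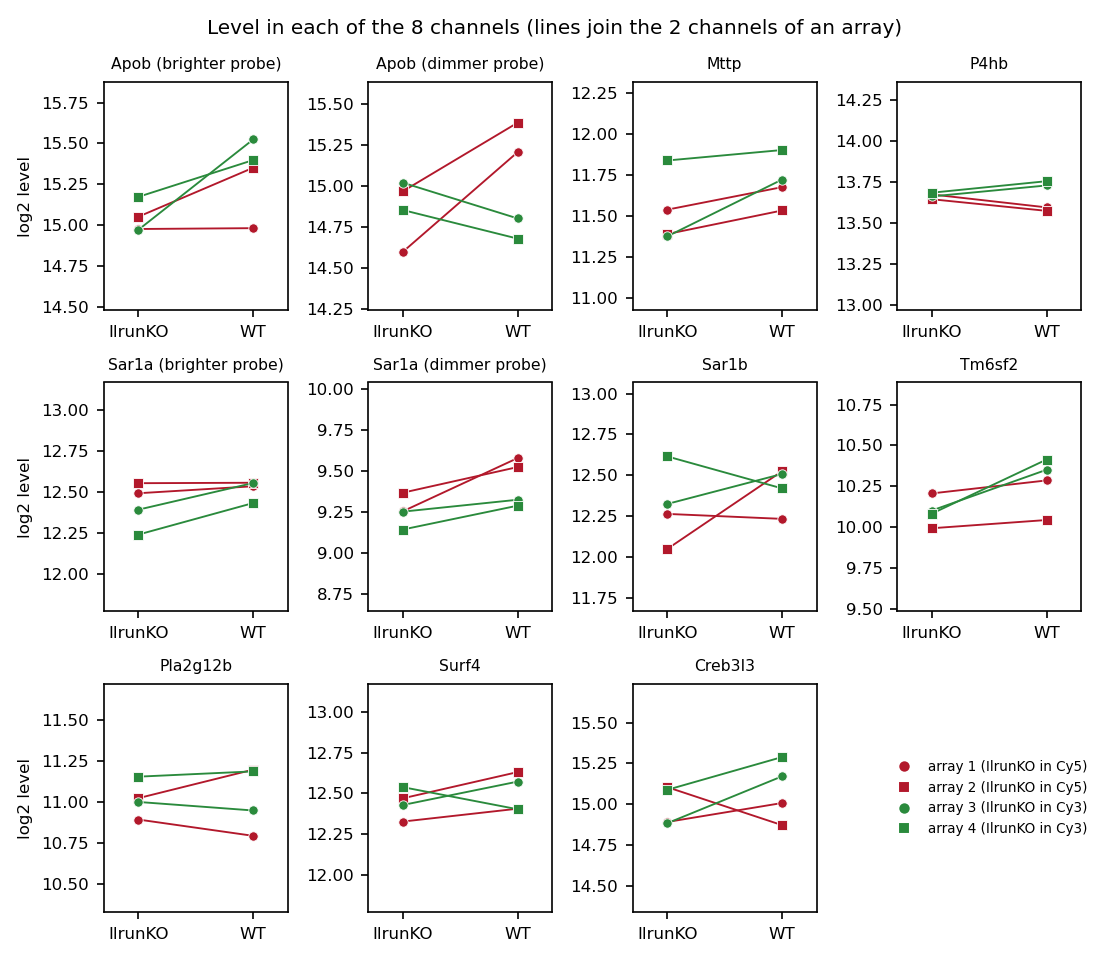
Log2 level of each of the 11 probes (vertical axis, one panel per probe) in the 4 IlrunKO samples, left, and the 4 WT samples, right, with a line joining the 2 samples of an array. In every panel the 2 genotypes overlap, and only the panels for Mttp, Tm6sf2, the brighter Apob probe and both Sar1a probes have all 4 lines running the same way.

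For 0 of the 9 genes did the 4 IlrunKO levels all lie below or all above the 4 WT levels, where 4.19% of all genes lay wholly below and 4.71% wholly above. On the brighter or sole probe, 4 of the 9 were below 0 on all 4 arrays, namely Apob, Mttp, Sar1a and Tm6sf2, where 11.5% of all genes were. Over the 11 probes, 0 passed the limma test, where 1.5% of all 24350 probes passed, and 5 had an unadjusted p under 0.05, where 20.7% of all did.

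The other genes of the pathway were counted by role, from lists of known components. Over all genes tested, 1.37% passed, 20.5% had an unadjusted p under 0.05 and 50.6% had an estimate below 0. Of the 23 genes of the COPII coat and of exit from the endoplasmic reticulum, 22 were tested, since Sec31a did not pass the filter on dim probes, and 0 rose or fell in limma, with 5 at an unadjusted p under 0.05. Their median ratio was -0.07, with 14 genes below 0 and 8 above. The 2 genes with the smallest p were Pef1, which encodes a calcium-binding partner of the coat (ratios 0.15, 0.23, 0.23 and 0.36, estimate 0.24, limma adjusted p = 0.1003; 0.11 on its other probe, adjusted p = 0.282 over all probes), and Sec24b, a cargo-binding coat subunit (-0.15, adjusted p = 0.183). Among the 18 genes that supply lipid to the particle, 0 passed and 6 had an unadjusted p under 0.05, with a median of 0.02. Pemt, which makes phosphatidylcholine in hepatocytes, had ratios of -0.05, -0.13, -0.69 and -0.33 (estimate -0.30, limma adjusted p = 0.129), and its other 2 probes gave -0.33 and -0.34 (adjusted p = 0.111 and 0.0626 over all probes). Tor1aip2, an activator of torsin, had an estimate of -0.34 (limma adjusted p = 0.184), but its other probes gave only -0.05 and -0.07.

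Of the 8 genes for Apob mRNA editing and apolipoprotein B degradation, 0 passed and 4 had an unadjusted p under 0.05, with 7 below 0 and a median of -0.18 (all genes: 20.5% and 50.6%). Derl1, a component of the export channel for misfolded proteins, was at -0.19 (limma adjusted p = 0.197), and a second probe gave -0.08 for Derl1. Of 12 transcription regulators of Apob and Mttp, 0 passed and 5 had an unadjusted p under 0.05, with 6 below and 6 above 0 and a median of 0.01. Srebf1, a regulator of fatty acid synthesis, was at -0.17 (limma adjusted p = 0.166). Cebpa, a hepatocyte transcription factor, had ratios of -0.12, -0.24, 0.43 and 0.78 that turned with the dye orientation (estimate 0.21, adjusted p = 0.212).

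In the list of CREBH proteases and target genes, 2 of 8 passed, 1 in each direction, and 5 had an unadjusted p under 0.05. Over all genes, 1.37% passed and 20.5% had such a p. The list was chosen with earlier results of these data known, so its counts are not independent of them. Apoc2, which encodes the cofactor of lipoprotein lipase, rose in IlrunKO. Its level was 16.15, 15.94, 16.11 and 16.16 in IlrunKO, against 15.05, 15.34, 15.52 and 15.56 in WT, with ratios of 1.09, 0.60, 0.59 and 0.60 and an estimate of 0.72 (1.65-fold, limma adjusted p = 0.0474). All 4 IlrunKO levels stood above all 4 WT levels, where 4.71% of all genes were so separated. Without array 3 the adjusted p of Apoc2 was 0.207 and without array 4 it was 0.164, at nearly the same estimates. Fgf21, a hormone that the liver releases on fasting, fell. Its ratios were -0.86, -0.65, -0.53 and -0.93 (limma adjusted p = 0.0433), and its probe was well above background on all 4 arrays in WT but on none in IlrunKO. The fold is therefore uncertain. The estimate was -0.74 (1.67-fold lower), with a limma interval of -0.96 to -0.52. Raising the dim signal to the lowest signal well above background on each array, where that was higher, gave the same 1.67-fold. That step thus set no limit on the fold apart from the estimate itself. Some other settings gave estimates below that interval: -1.17 without background correction and -1.305 with the deposited values. An offset of 0 in the background correction gave -1.63, and Agilent's processed signals gave -3.19. Median centring gave -0.749. Fgf21 passed the filter on dim probes through its WT channels alone. Its adjusted p was 0.0543, 0.0536, 0.153 and 0.133 without arrays 1, 2, 3 and 4, so the call needed every array. The list's estimates ran between -0.89 and 1.53, with a median of 0.00088 and 4 genes on each side of 0, so the list was split between both signs.

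The PDI family and the other subunits of prolyl 4-hydroxylase, 7 genes, held 0 that passed and 1 with an unadjusted p under 0.05, with a median of -0.08. P4ha1, a catalytic subunit that pairs with P4hb, was at -0.24 (limma adjusted p = 0.195), with -0.11 on another probe, and P4ha2 was at -0.20 (adjusted p = 0.354). Of 6 relatives of the members in their gene families, 0 passed and 1 had an unadjusted p under 0.05. Creb3l4 and Creb3l1, of the same transcription factor family as Creb3l3, were at 0.21 and 0.13 (limma adjusted p = 0.175 and 0.264). With Agilent's processed signals Creb3l4 was at 0.85 (adjusted p = 0.0701).

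**Figure D3:**
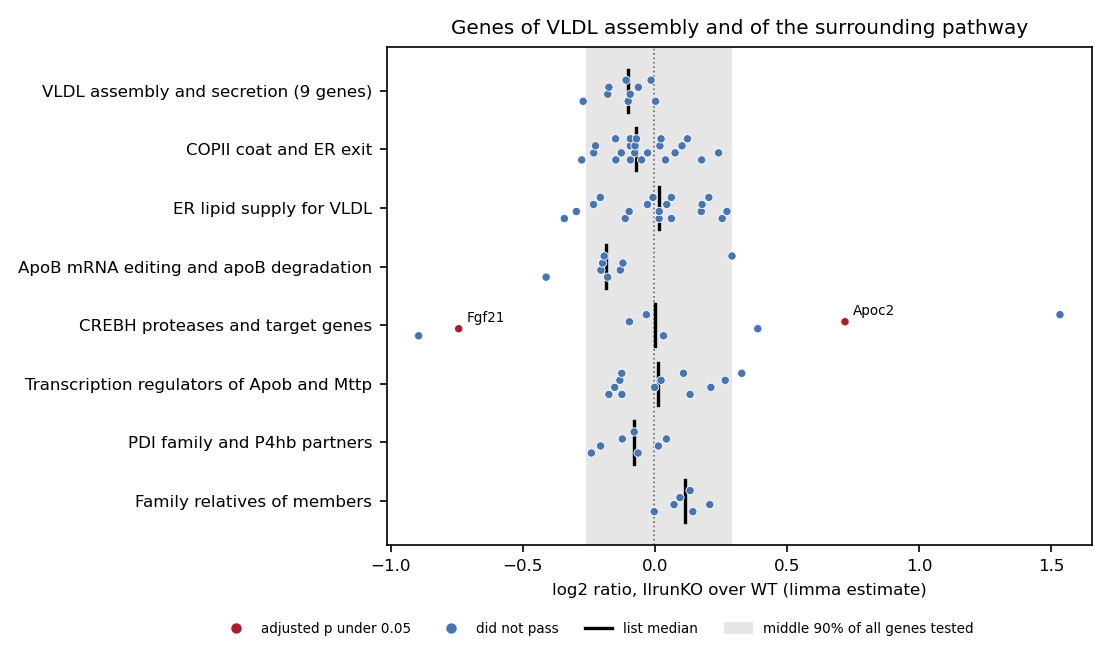
Log2 ratio of IlrunKO over WT (horizontal axis) of every tested gene in the member list and the 7 pathway lists (rows), with one dot per gene, red where the gene passed the limma test and blue otherwise, a black tick at the list's median and a grey band between the 5th and 95th percentile of all genes tested. The 2 genes that passed, Apoc2 at 0.72 and Fgf21 at -0.74, are both in the list of CREBH proteases and targets, and list medians lie between -0.18 and 0.11.

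The genes whose level most closely followed a member over the 8 channels were found by Pearson's r, over all genes tested, as a description with no test. The 8 channels are not independent, since the samples of an array share it. For Apob these were Upf2 (r = 0.972), Usp15 (0.969) and C87490 (0.965). For Mttp they were Phospho2 (r = 0.981), Cnot3 (0.967) and Ppp2r2a (0.964). Tm6sf2 was followed most closely by Ankrd39 (r = 0.973), an unnamed transcript (0.972) and Dcbld1 (0.971). For Creb3l3 they were Smad7 (r = 0.982), Egr1 (0.968) and Csrp2 (0.966). None of the named genes was itself one of the 9 members.

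Markers of other liver cell types were read beside these values. Stellate cell markers were below 0 for 8 of 8 genes, where 50.6% of all genes were, with a median of -0.29. Of these 8, 0 passed and 7 had an unadjusted p under 0.05, where 20.5% of all genes had. The summed log2 level of the stellate list was 14.56 to 15.08 in IlrunKO, against 15.12 to 15.20 in WT. Kupffer cell markers were above 0 for 8 of 8 genes, with a median of 0.41. Of these, 0 of 8 passed and 4 had an unadjusted p under 0.05. By array their median ratio was -0.25, 0.83, 0.46 and 0.58 on arrays 1 to 4. Their summed level was 14.96 to 15.57 in IlrunKO and 14.60 to 15.29 in WT. Among 9 adipocyte markers 6 were tested, 5 had an estimate above 0 and 2 rose, where 1.37% of all genes passed. Those 2 were Cfd (3.82, limma adjusted p = 0.0470) and Adrb3 (1.04, limma adjusted p = 0.0304). Cidec, also in the CREBH list, was at 1.53 without passing, and Fabp4 was below 0, at -0.11. The summed level was 12.51 to 13.16 in IlrunKO and 11.35 to 11.64 in WT. The defining markers Adipoq, Plin1 and Lep were not well above background in any channel. Lymphocyte markers, 4 of 6 tested, had a summed level of 10.22 to 10.50 in IlrunKO and 10.68 to 10.87 in WT. The genotypes' summed levels thus did not overlap for the lymphocyte, stellate and adipocyte lists. Of single genes, 4.19% of all lay wholly below and 4.71% wholly above WT. Among the lymphocyte markers only Nkg7 fell (-0.76, limma adjusted p = 0.0304), where 1.37% of all genes passed. Cd3e and Ms4a1 were at -0.13 and -0.14, and Cd3g went the other way, at 0.18, none of them passing. Cd8a and Cd79a did not pass the filter on dim probes. Endothelial markers were below 0 for 7 of 8 genes, with a median of -0.08, a summed level of 14.41 to 14.64 in IlrunKO and 14.51 to 14.68 in WT, and 0 that passed. The part of these cell types in the members' ratios was not tested.

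Other settings of the processing were tried 1 at a time, 16 in all. No member gene or probe passed under any of them. Apob ranged between -0.44 and -0.19 over them, Mttp between -0.30 and -0.10, Tm6sf2 between -0.29 and -0.16, and Sar1a between -0.23 and -0.09. The smallest limma adjusted p of any member was 0.0565, for Tm6sf2 in the separate-channel model, whose range over the 16 settings was 0.0565 to 0.463. Apob reached 0.0584 in that model, with a range of 0.0584 to 0.483. With median centring in place of loess, all 9 genes were below 0 and the members' median was -0.25, while the median of all genes was -0.05.

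**Figure D4:**
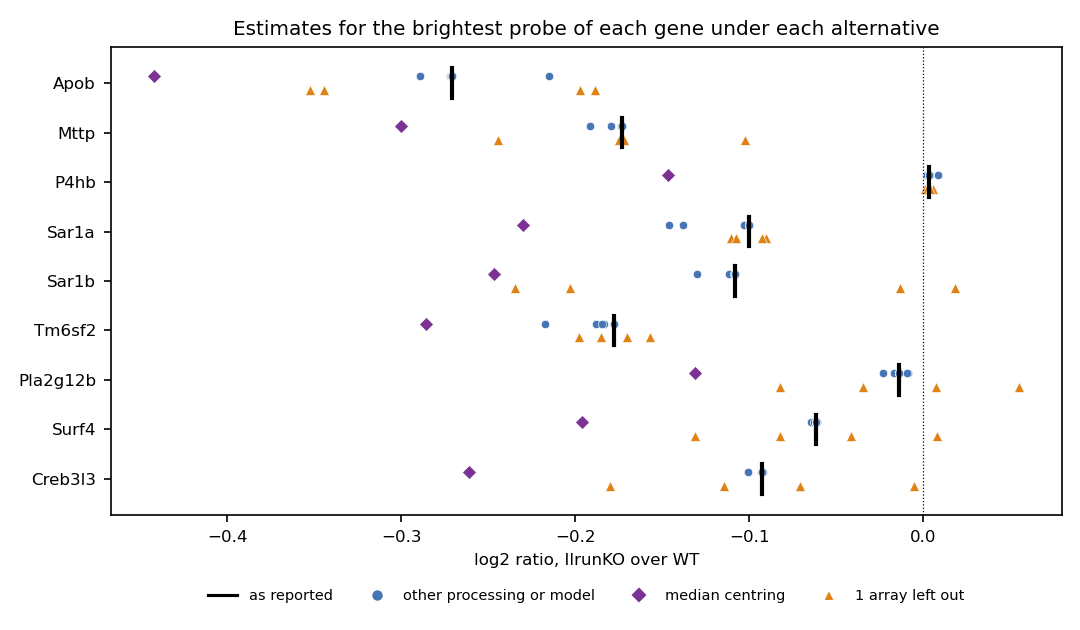
Log2 ratio of IlrunKO over WT (horizontal axis) of each of the 9 genes as reported (black tick) and under the 16 alternatives (purple diamond for median centring, orange triangles for 1 array left out, blue circles for the rest). Apob, Mttp, Tm6sf2, Sar1a and Creb3l3 lie below 0 under all of them, while P4hb, Sar1b, Pla2g12b and Surf4 cross 0 under at least 1.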

How the data were processed

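Each array carried 1 IlrunKO and 1 WT liver sample, with dyes and genotypes taken from the labels. The scanner files that the authors deposited came from Feature Extraction (version 10.10.1.1). Per the file headers they hold raw intensity (mean of a spot and median of the background around it) and processed intensity, from which the program subtracted background and removed dye bias. The deposited scanner files also hold a log10 ratio of processed Cy5 to Cy3, per the file headers. A deposited table holds log2 values, which run as IlrunKO over WT on all arrays: against the scanner ratio, over spots well above background, r was 0.956, 0.943, -0.943 and -0.952, and the columns' medians were -0.039, -0.043, 0.038 and 0.035. The submitters' processing notes name limma; how background and scale were treated in that table is not known.

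Raw intensity was processed anew with limma 3.58.1 (R 4.3.3, data.table version 1.17.8) by normexp with an offset of 50 and loess within each array, giving weight 0 to 1377 control spots. Outlier spots were dropped (381, 280, 239 and 224 on arrays 1 to 4) and spots of a probe averaged; none was saturated. Aquantile scaling after loess gave the channel levels. RefSeq accessions named 26055 of the 39429 probes, symbols or synonyms named 4125, and 9249 were left with the array's own name. A gene was represented by its brightest probe and tested if that probe was well above background in 3 or more of 4 channels of either genotype. Genotype and dye were the terms of the model (lmFit, eBayes; 2 residual and 2.83 prior degrees of freedom), and Benjamini-Hochberg adjustment covered all genes tested, two-sided, at 0.05. Because of the dye term, disagreement between the 2 dye orientations does not widen the error.

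Every probe of the 9 members is given; each list contributes the genes that passed or else the 2 with the smallest p, 4 members have their 3 closest genes by level, and Ilrun checks the labels. For 1 list, 1 of the genes so chosen is not reported here. Members and lists were chosen with earlier results of these data known. On simulated data of the same size (19651 genes, 200 of them changed, 5 runs), 44.8% of log2 changes of 0.5 and 91.8% of those of 1 were recovered. Of 726 calls, 43 were false. The simulation drew noise independently for each gene and array, with dye effects smaller than those of some probes here. Its rates may therefore not hold for these data. Alternatives replaced, 1 at a time, the dye term, the treatment of background, the scaling, the filter, the choice of probe, the variance model, equal array weights, the source of values, the set of arrays, the threshold and the ratio model. Probe positions are from mm9, without exon or intron assignment.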

Additional observations from a re-analysis of the deposited data

Results flagged for a closer look

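In 4 of 78 groups of 4 values examined, 1 value stood far from the other 3, its gap to the nearest, as a share of the group's whole range, being past Dixon's critical value; chance alone flags about 1 group in 20. None of them belonged to a member of the VLDL machinery. The Apoc2 ratio of array 1 was 1.09 and its nearest neighbour 0.60 (gap 0.984 of the range); without array 1 Apoc2 was at 0.60 (limma adjusted p = 0.0358). The WT level of Pemt was 15.13 on array 3, next to 14.79 (gap 0.842 of the range). Ilrun had its lowest ratio on array 4, at -4.56 next to -4.12 (gap 0.840), where its IlrunKO level was 7.76, next to 7.98 (gap 0.970).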

How the results depend on the processing

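Across 16 alternatives no member gene or probe passed. Of 174 member values, 73 equal the reported estimate, since 6 of the settings change only the test and not the estimate, and averaging cannot move a gene with a single probe; of the 101 that differ, 96 kept their direction. The 5 that turned were P4hb at -0.147 with median centring, Pla2g12b at 0.0548 without replicate 2 and 0.0074 without replicate 4, Sar1b at 0.0182 without replicate 2, and Surf4 at 0.0078 without replicate 3. Leaving out a replicate moved Pla2g12b between -0.0823 and 0.0548, Sar1b between -0.235 and 0.0182, and Surf4 between -0.131 and 0.0078. Averaged over the 2 arrays of 1 dye orientation, 5 of 22 member values had the opposite sign: Creb3l3 at 0.0583 with IlrunKO in Cy5, and, with IlrunKO in Cy3, P4hb at -0.0687, Pla2g12b at 0.0099, Sar1b at 0.0061 and the dimmer Apob probe at 0.197. The mean of Sar1a minus Sar1b was -0.0162 with Agilent's processed signals, and -0.147 to 0.140 when a replicate was left out. The count of all genes passing was 442 without background correction, 61 with Agilent's processed signals, 1 with median centring and 412 with a trended and robust variance. It was 449 with the deposited values, 1116 at a threshold of 0.1, and 2486 of 19565 with the separate-channel model. Leaving out a replicate gave 1 to 464 calls: 464 without array 1 (64.2% of them higher, against 52.2% with all arrays), and 1 without array 3 or without array 4. Pathway genes passing, 2 in the main setting, numbered 1 with Agilent's processed signals, 0 with median centring, 1 when a gene's probes were averaged, 4 at a threshold of 0.1, 13 with the separate-channel model, and 0 to 2 when a replicate was left out (0 without array 3 or 4). Apoc2 missed the threshold with Agilent's processed signals (limma adjusted p = 0.0845), median centring (0.368) and averaged probes (0.0509). Fgf21 missed it with median centring (0.199), and its estimate was -3.19 with Agilent's processed signals. Of the 15 other genes that the naming rule chose, 0 changed direction, but Pef1, Sec24b, Pemt, Tor1aip2, Derl1, P4ha1 and Creb3l4 passed in the separate-channel model (limma adjusted p of 0.0170 to 0.0422). The cause of these differences was not tested. No separate paired analysis was possible because each ratio already pairs the IlrunKO and WT sample of 1 array.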
